A study of Mus musculus with 3 samples.

Results

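The pre-B receptor and B-cell signaling genes described here are 9 genes, *Vpreb1*, *Vpreb2*, *Vpreb3*, *Igll1*, *Cd79a*, *Cd79b*, *Blnk*, *Btk* and *Cd22*, chosen by gene symbol from the 36172 genes of a deposited table of normalized read counts; all 9 were found. The table holds 3 RNA sequencing libraries of bone marrow LSK cells (lineage-negative, Sca1-positive and c-Kit-positive cells, the gate that holds hematopoietic stem and early progenitor cells) from C57BL/6 mice: *Calr* del10/WT, *Calr* ins2/WT and *Calr* WT/WT, called del10, ins2 and WT. The knock-in mice carry a frameshift in exon 9 of 1 *Calr* allele, made with CRISPR-Cas9 to resemble the *CALR* frameshifts of human myeloproliferative neoplasms, and their WT littermates carry none. Each library is 1 aliquot of cells pooled from 4 male mice aged 3 months. With 1 library per genotype there is no spread between replicates, so no comparison below has a p-value, and every interval covers counting error only.

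The pre-B cell receptor is the checkpoint that a developing B cell passes once it has made an immunoglobulin heavy chain. Before a light chain exists, the surrogate light chain, built from a VpreB protein and the λ5 protein encoded by *Igll1*, pairs with the heavy chain, and the Cd79a and Cd79b chains carry the signal into the cell. Syk is then recruited to the phosphorylated Cd79 tails, Blnk (also called SLP-65) serves as the scaffold that brings Btk to phospholipase C gamma 2, and Cd22, a receptor for sialic acid, damps the response through the phosphatase Shp1. Most of these genes are switched on with commitment to the B lineage, in pro-B and pre-B cells. That is after the stage at which LSK cells are defined, although some lymphoid-primed progenitors already express a few of them. *Btk* is an exception, since it is also used in myeloid and mast cells.

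The members lie on 6 chromosomes of mm10. *Cd79a* (chr7:24897511-24902197, plus strand) and *Cd22* (chr7:30865404-30880342, minus) share chromosome 7. *Igll1* (chr16:16860671-16863985, minus), *Vpreb1* (chr16:16868401-16869255, minus) and *Vpreb2* (chr16:17980565-17981080, plus) share chromosome 16. *Vpreb3* is at chr10:75948312-75949646 (plus), *Cd79b* at chr11:106311341-106314529 (minus), *Blnk* at chr19:40928927-40994535 (minus) and *Btk* at chrX:134542341-134583140 (minus).

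*Vpreb1* and *Vpreb2* are near copies, and their sequences bear on how far their separate counts can be read. Their coding regions in GENCODE have 426 bases each without the stop codon and match at 417 of them (97.9%). The last 240 coding bases of each, all in exon 2, are printed below, with the 6 bases that differ in this stretch in capitals; the strand is that of the gene, and the positions are chr16:16868599-16868838 (minus) for *Vpreb1* and chr16:17980838-17981077 (plus) for *Vpreb2* in GRCm38.
Vpreb1: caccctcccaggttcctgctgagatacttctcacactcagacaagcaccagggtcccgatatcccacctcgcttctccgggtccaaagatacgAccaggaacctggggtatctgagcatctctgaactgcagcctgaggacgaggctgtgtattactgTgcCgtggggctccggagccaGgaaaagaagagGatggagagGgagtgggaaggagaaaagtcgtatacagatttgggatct
Vpreb2: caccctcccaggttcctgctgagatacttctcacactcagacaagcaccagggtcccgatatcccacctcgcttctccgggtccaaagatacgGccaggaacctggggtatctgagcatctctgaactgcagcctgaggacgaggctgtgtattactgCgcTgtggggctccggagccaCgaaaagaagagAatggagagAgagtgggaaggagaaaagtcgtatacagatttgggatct
Of the 352 windows of 75 bases (the read length) in the coding region of *Vpreb1*, 122 (34.7%) occur unchanged in that of *Vpreb2*, so a read from them cannot be placed in 1 gene. Over the whole GENCODE transcripts 136 of 692 windows of *Vpreb1* and 136 of 685 of *Vpreb2* are shared. The sources used here do not give how the counting divided such reads, and the separate counts of the pair are uncertain for that reason. Of the other members, *Cd79a* shares 62 of 1383 windows with the predicted gene *Gm32220*, and *Cd22* has 315 of 3900 windows in reverse complement on *Gm29439*; the library kit keeps strand, but whether strand was used in counting is not stated. The other 5 members share no window with another GENCODE gene.

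Promoter sequence is shown for 3 members, *Vpreb3*, *Cd79a* and *Igll1*. RefSeq promoter windows (GRCm38.p6, from 250 bases before to 50 bases after the start of a gene) were matched for 8 of the 9 members, and only stretches outside annotated exons are printed, 5′ to 3′ on the strand of the gene. The capitals mark the octamer ATTTGCAT in *Vpreb3* (chr10:75948050-75948299, plus), the E-box CAGGTG in *Cd79a* (chr7:24897247-24897380, plus) and the E-boxes CAGCTG and CAGGTG, the second read here in reverse complement, in *Igll1* (chr16:16863986-16864235, minus).
Vpreb3: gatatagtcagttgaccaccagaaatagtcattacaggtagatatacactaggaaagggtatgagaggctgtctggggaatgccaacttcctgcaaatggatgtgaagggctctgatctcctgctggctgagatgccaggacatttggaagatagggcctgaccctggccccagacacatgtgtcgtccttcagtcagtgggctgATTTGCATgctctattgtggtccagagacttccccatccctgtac
Cd79a: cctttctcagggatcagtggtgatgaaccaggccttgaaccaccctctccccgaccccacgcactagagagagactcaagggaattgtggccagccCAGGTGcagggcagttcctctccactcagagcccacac
Igll1: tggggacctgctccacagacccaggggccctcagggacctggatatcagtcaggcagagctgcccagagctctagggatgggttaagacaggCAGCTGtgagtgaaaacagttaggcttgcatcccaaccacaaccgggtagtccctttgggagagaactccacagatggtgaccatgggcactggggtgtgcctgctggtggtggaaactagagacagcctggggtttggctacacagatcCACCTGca
Both strands of the 300-base windows were searched. The octamer, the motif of the Oct factors that work with the B-cell coactivator Pou2af1, was found in *Vpreb3* and *Blnk*, and in 1.74% of all 32851 windows. CAGGTG, an E-box of the kind bound by E2A (encoded by *Tcf3*), was found in *Cd79a*, *Cd22*, *Igll1*, *Vpreb1*, *Vpreb2* and *Blnk*, and in 20.2% of all windows; CAGCTG was found in *Igll1* and *Vpreb2*, and in 16.3%. CCCNNGGG, the core of the motif of Ebf1, was found in *Cd22* and *Igll1*, and in 13.7%. GAGGAA, an Ets core of the kind bound by PU.1 and Spi-B, was found in *Cd79a*, *Igll1*, *Vpreb1*, *Vpreb2* and *Btk*, and in 28.3%. None of these 5 motifs contains another. The search also covered TCCCNNGGGA, the longer Ebf1 palindrome around that core, found in *Cd22* and in 0.904% of all windows. CAGGAAG, a further Ets motif, was found in *Cd79a*, *Vpreb3*, *Vpreb2* and *Blnk*, and in 13.3%. TGGGAA, the Ikaros core, was found in *Cd22*, *Vpreb2* and *Btk*, and in 25.6%. TGTGGT, the Runx core, was found in *Vpreb3* and *Igll1*, and in 16.8%. No binding was measured here, and a match of letters is not a bound site.

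The libraries hold 11111698 reads in del10, 10967622 in ins2 and 9823095 in WT, and read counts were scaled by the authors' factors. Low counts are not single reads: the commonest low read count of a gene was 16 in del10, 21 in ins2 and 61 in WT, so reads were also divided by these numbers to give estimated fragments, and the intervals printed below are exact 95% intervals on those fragments. The WT library went against its label: *Kit*, which defines the gate, had a normalized count of 4177 in del10 and 3082 in ins2, against 286 in WT, and *Cd34* had 1664 in del10 and 727 in ins2 and was listed at 0 in WT. *Ly6a* (Sca1), which also defines the gate, was low in each library, at 51.9 in del10, 120.1 in ins2 and 145 in WT. That is 3.19 estimated fragments in del10, 5.81 in ins2 and 2.16 in WT, so *Ly6a* does not bear out the LSK label in del10 and ins2 either. Over the 10 LSK and progenitor markers the summed normalized count was 16205 in del10, 12754 in ins2 and 2041 in WT; among the markers listed at 0 were *Cd34* and *Procr* in WT, and *Procr* in ins2. Over the 8 basophil and mast cell markers it was 29974.5 in del10, 20809.9 in ins2 and 1495 in WT, with *Ms4a2* listed at 0 in each library and *Il4* at 0 in WT. *Calr* itself had 7300 in del10, 4679 in ins2 and 3800 in WT, a gene count that does not separate the alleles. Each ratio to the library labelled WT below therefore compares 1 library of a different makeup, and genotype and makeup cannot be told apart. The comparison of del10 with ins2 does not use WT, but these libraries also differed in makeup. Their T and NK markers summed to 4457 in del10 and 12282 in ins2, so genotype and makeup cannot be told apart there either.

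Each of the 9 members had its highest level in the library labelled WT. Together they took 0.0602% of reads in del10 and 0.0541% in ins2, against 0.205% in WT. In del10, 7 of the 9 were more than 2-fold lower than in WT (*Cd79a*, *Cd79b*, *Vpreb1*, *Vpreb2*, *Vpreb3*, *Blnk* and *Cd22*); in ins2, 7 of the 9 were (*Cd79a*, *Cd79b*, *Vpreb1*, *Vpreb3*, *Igll1*, *Blnk* and *Cd22*), and 6 were in both. Over the 7073 genes with a mean normalized count at or above 215, the median of detected genes, 10.2% were more than 2-fold lower in del10 and 10.7% in ins2. The members' median log2 ratio, of normalized counts plus 1, was -1.79 for del10 over WT and -1.93 for ins2 over WT, against 0.04 and 0.04 over those 7073 genes. All 9 members are in this set; with the mean of del10 and ins2 alone, 8 would be, and *Vpreb2* would not. The 2 ratios share the WT library, so the second is not a repeat of the first, and genes called in both are in part given by the shared WT values. The shares of all genes that were highest in WT, or lower in both, were not computed. In bulk libraries, fewer cells that express a gene and less of its RNA per cell cannot be told apart.

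**Figure D1:**
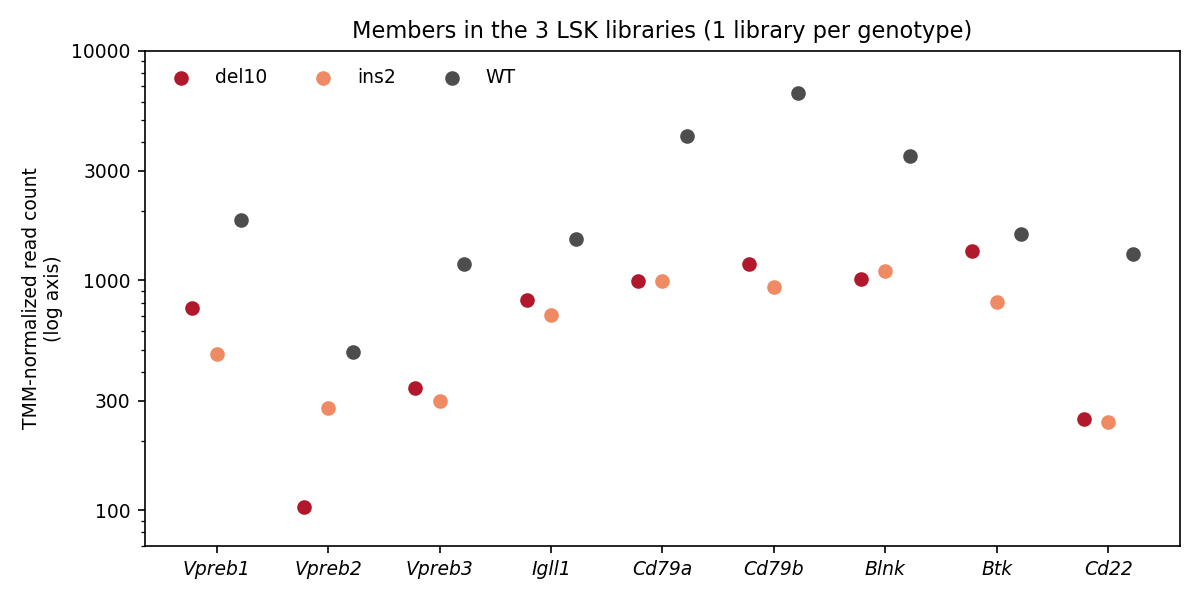
Normalized read count (log axis) of each member in the del10, ins2 and WT libraries, 1 point per library, genes ordered from the surrogate light chain to the signaling chains, the adaptor and kinase, and the inhibitory receptor. In each gene the WT point is the highest, and the gap is widest for Cd79b (1179.8 in del10, 941 in ins2, 6543 in WT) and small for Btk in del10 (1349, against 1595 in WT).

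Among the surrogate light chain genes, *Vpreb1* had normalized counts of 757 in del10, 477 in ins2 and 1824 in WT. The log2 ratio to WT was -1.27 in del10 (interval 0.253 to 0.693 times the WT level) and -1.93 in ins2 (0.143 to 0.473 times). *Vpreb2* had 103 in del10, 278 in ins2 and 486 in WT. These *Vpreb2* counts come to 6.34 estimated fragments in del10, 13.5 in ins2 and 7.25 in WT, so its log2 ratios of -2.22 in del10 (0.0613 to 0.717 times) and -0.80 in ins2 (0.216 to 1.66 times) are the least precise of the 9. Because reads of the copies can be exchanged, their sum was taken after the values had been seen: it was 861 in del10, 755 in ins2 and 2310 in WT. The log2 ratio of the sum was -1.42 in del10 (0.238 to 0.590 times) and -1.61 in ins2 (0.199 to 0.536 times). *Vpreb2* made up 12.0% of the sum in del10, 36.8% in ins2 and 21.0% in WT.

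*Igll1*, the λ5 partner of VpreB, had 821 in del10, 710.5 in ins2 and 1508 in WT, which gave log2 ratios of -0.88 (0.325 to 0.939 times) in del10 and -1.08 (0.269 to 0.841 times) in ins2, on either side of 2-fold but with widely overlapping intervals. *Vpreb3*, whose product binds newly made immunoglobulin chains inside the cell and is not the VpreB of the surrogate light chain, had 340.2 in del10, 297 in ins2 and 1179.8 in WT. Its log2 ratios were -1.79 (0.146 to 0.578 times) in del10 and -1.99 (0.116 to 0.536 times) in ins2, further from WT than *Igll1* in both, although the intervals overlap.

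The signaling chains were far lower in both knock-in libraries. *Cd79a* had 997 in del10, 995 in ins2 and 4234 in WT, or 23.6% of the WT level in del10 and 23.5% in ins2 (log2 ratios -2.08 and -2.09, intervals 0.163 to 0.340 and 0.158 to 0.347 times). *Cd79b* had 1179.8 in del10, 941 in ins2 and 6543 in WT, or 18.0% and 14.4% (log2 ratios -2.47 and -2.80, intervals 0.131 to 0.247 and 0.0988 to 0.206 times). The Cd79b intervals lie wholly beyond 4-fold for both knock-in libraries. *Blnk*, the adaptor, had 1018 in del10, 1096 in ins2 and 3483 in WT, with log2 ratios of -1.77 (0.199 to 0.431 times) and -1.67 (0.210 to 0.470 times).

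*Btk*, the kinase downstream of Blnk, which is also used in myeloid and mast cells, was the only member of the 9 within 2-fold of WT in both libraries. It had 1349 in del10, 802 in ins2 and 1595 in WT. The log2 ratio was -0.24 in del10 (0.530 to 1.40 times, an interval that holds equality) and -0.99 in ins2 (0.294 to 0.876 times), just short of 2-fold. *Cd22*, the inhibitory receptor, had 249.7 in del10, 242 in ins2 and 1304 in WT, with log2 ratios of -2.38 (0.0914 to 0.394 times) and -2.42 (0.0818 to 0.403 times). Where the whole interval on fragments is required to lie beyond 2-fold, 4 of 9 members were lower in del10 (*Cd79a*, *Cd79b*, *Blnk* and *Cd22*; 1.63% of the 7073 genes) and 5 of 9 in ins2 (these and *Vpreb1*; 1.4%).

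**Figure D2:**
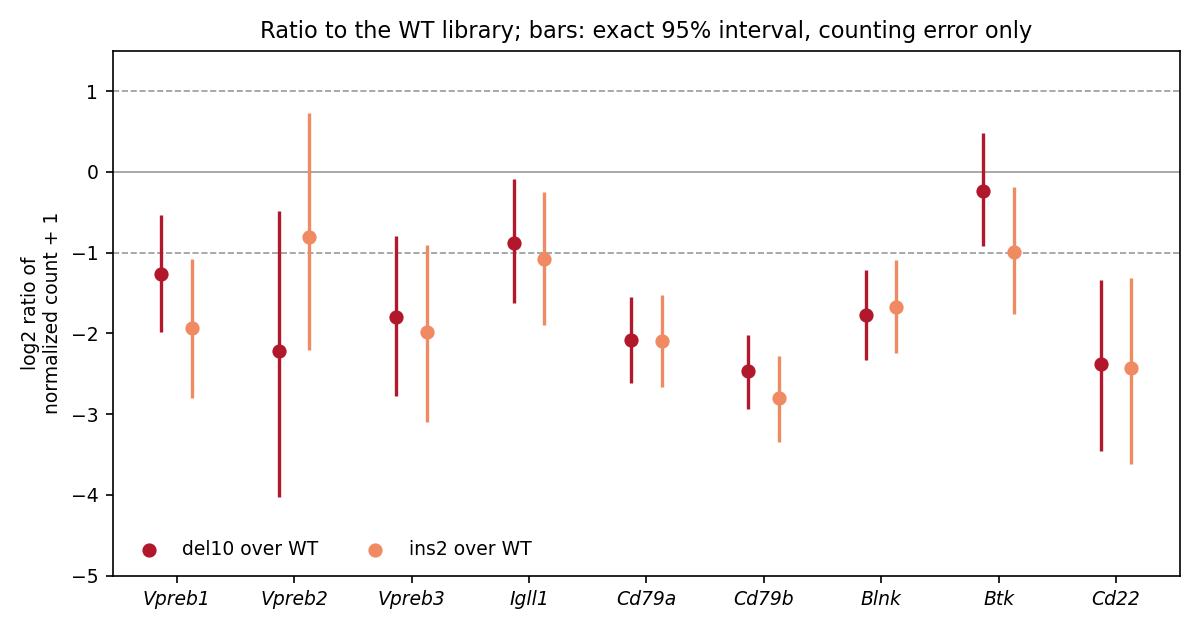
Log2 ratio of each member to the WT library (y axis, normalized count plus 1) for del10 and ins2; bars are exact 95% intervals on estimated fragments and the dashed lines mark 2-fold. Cd79a, Cd79b, Blnk and Cd22 lie below the lower dashed line with their whole bars in both comparisons, and the bar of Btk crosses 0 in del10.

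Between the knock-in libraries the members differed little. In del10 over ins2, 1 of 9 was beyond 2-fold (*Vpreb2*), against 7.62% of the 7073 genes, and the members' median log2 ratio was 0.19, against 0.01 over those genes. *Vpreb2* was lower in del10, with a log2 ratio of -1.42 (0.120 to 1.02 times the ins2 level), an interval that holds equality, while its copy *Vpreb1* was higher in del10, at 0.67 (0.945 to 2.74 times). The sum of the copies had a log2 ratio of 0.19 (0.734 to 1.79 times). *Btk* was higher in del10, with a log2 ratio of 0.75, and was the only member whose interval left out equality (1.14 to 2.53 times). The remaining 6 members had log2 ratios from -0.11 (*Blnk*) to 0.33 (*Cd79b*); *Cd79a* was at 0.00 (0.676 to 1.49 times), and the sign of *Cd79a* and of *Cd22* (0.04) turned with the scaling. Differences inside these intervals were not detectable at this depth.

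Levels were compared between genes only per kilobase, as the normalized count divided by the length of the longest protein-coding GENCODE transcript. In del10 *Vpreb1* (989 per kb) and *Igll1* (944) stood first and second, followed by *Cd79b* (824) and *Cd79a* (684), *Btk* (531), *Blnk* (486), *Vpreb3* (467), *Vpreb2* (136) and *Cd22* (62.8). In ins2 the order was *Igll1* (817 per kb), *Cd79a* (683), *Cd79b* (657), *Vpreb1* (622), *Blnk* (523), *Vpreb3* (408), *Vpreb2* (366), *Btk* (316) and *Cd22* (60.9). In WT *Cd79b* stood first (4573 per kb), followed by *Cd79a* (2906), *Vpreb1* (2381), *Igll1* (1734), *Blnk* (1661), *Vpreb3* (1618), *Vpreb2* (640.3), *Btk* (628) and *Cd22* (328). Most neighbours in these orders were not separated by counting error: the interval of their ratio held 1 for 7 of 8 neighbouring pairs in del10, 7 of 8 in ins2 and 5 of 8 in WT. In WT *Cd79b* was 1.57 times *Cd79a*, with an interval that left out 1. The model of *Vpreb2* in the deposited table spans 516 bases, less than the 759 bases of its GENCODE transcript, so its level per kilobase is understated if reads outside that span were not counted.

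The counts of the lists that follow stand beside shares over the 7073 genes of 10.2% lower and 15.3% higher in del10, and 10.7% lower and 15.7% higher in ins2. Because the set is filtered on the mean of the 3 libraries, a gene can enter it through a library where it is high. Of 18 kinases and adaptors of B-cell receptor signaling, all in the set of 7073, 6 were more than 2-fold lower and 4 higher in del10, and 4 lower and 1 higher in ins2, with medians of -0.16 and -0.16. *Bank1*, a B-cell scaffold, had 133 in del10, 386 in ins2 and 718 in WT, and *Blk*, a Src-family kinase of B cells, 349 in del10, 326 in ins2 and 1171 in WT. The kinase *Syk*, named after its values had been seen, had 6637 in del10, 4753 in ins2 and 14886 in WT (log2 ratios -1.17 and -1.65). *Plcg2*, the substrate of Btk and likewise named afterwards, had 2217 in del10, 1991 in ins2 and 3665 in WT, within 2-fold in both.

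Of 10 inhibitory genes in the set, 3 were lower and 1 higher in del10, and 3 lower and 2 higher in ins2. *Cd72*, a lectin that restrains the receptor, had 790.3 in del10, 885 in ins2 and 5907 in WT, whereas *Fcgr2b*, the inhibitory Fc receptor that myeloid and mast cells also carry, had 409 in del10, 464 in ins2 and 62.1 in WT. Of 5 co-receptor genes in the set, 3 were lower and 1 higher in del10, and 2 lower and 1 higher in ins2. *Ms4a1* (CD20) had 62.1 in del10, 404 in ins2 and 736 in WT, and *Ifitm1*, a small membrane protein of many cell types, 747 in del10, 1080.4 in ins2 and 71.5 in WT. Of 17 downstream genes, 3 were lower and 0 higher in del10, and 3 lower and 2 higher in ins2; *Foxo1*, a factor that drives *Rag* expression, had 1396 in del10, 1634 in ins2 and 4453 in WT, and *Bcl6* 124 in del10, 315 in ins2 and 409.8 in WT.

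Of 14 B-lineage transcription factors in the set, 9 were lower and 0 higher in del10, and 10 lower and 0 higher in ins2, with medians of -1.57 and -1.31. *Pou2af1*, the coactivator at octamer sites, had 902 in del10, 1139.6 in ins2 and 5909 in WT. *Pax5*, the factor that fixes B-cell identity and directly activates *Cd79a* and *Blnk* in mouse, had 409 in del10, 529.7 in ins2 and 2402 in WT. *Ebf1*, which with E2A switches on the surrogate light chain genes, had 1587 in del10, 1088 in ins2 and 7865 in WT.

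Of 7 pro-B and pre-B markers in the set, 6 were lower in del10 and 5 in ins2, and their summed normalized count over the list was 19004 in del10, 19887 in ins2 and 54914 in WT. *Dntt*, the terminal transferase that lymphoid progenitors express before commitment, was within 2-fold of WT in both comparisons, at 4194 in del10, 3735 in ins2 and 3981 in WT (log2 ratios 0.08 and -0.09); it was named after its values had been seen. Of the mature B markers, 4 of 4 in the set were lower in del10 and 2 of 4 in ins2; their list summed to 2262 in del10, 3103 in ins2 and 7743 in WT, and *Ighm* and *Ighd* were listed at 0 in each library. *Ly6d*, which marks B-biased lymphoid progenitors as well as B cells, had 425 in del10, 550.1 in ins2 and 1541 in WT. The plasma cell list summed to 633 in del10, 1327 in ins2 and 1908 in WT, with *Sdc1* at 248 in del10, 444 in ins2 and 1279 in WT, *Igj* at 172 in del10, 734 in ins2 and 383 in WT, and *Tnfrsf17* and *Xbp1* listed at 0 in each library.

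Markers of other cells moved in different directions beside the members. Of the LSK and progenitor markers in the set, 5 of 6 were more than 2-fold higher than in WT in del10 and 5 of 6 in ins2, with median log2 ratios of 3.42 and 3.13, or 3.01 and 2.34 with *Cd34* set to the level that a 0 in WT allows. Of the basophil and mast markers, 6 of 6 were higher in del10 and 6 of 6 in ins2, with medians of 4.07 and 3.67. *Flt3*, which lymphoid-primed progenitors carry, had 1533 in del10, 1682 in ins2 and 71.5 in WT. A normalized count under 201 in WT, as for *Flt3*, *Fcgr2b* and *Ifitm1*, is below 3 estimated fragments, and a 0 allows as much. *Mcpt8*, a basophil protease, had 6320 in del10, 3678 in ins2 and 203 in WT, and *Prss34* had 15962 in del10, 11103 in ins2 and 785 in WT. The plasmacytoid dendritic list summed to 3846 in del10, 5271 in ins2 and 3731 in WT, with 4 of 4 genes in the set within 2-fold of WT. *Ccr9* had 245 in del10, 617 in ins2 and 452 in WT, and *Bst2* 329 in del10, 393 in ins2 and 200.1 in WT. The neutrophil and monocyte list summed to 3789 in del10, 2950 in ins2 and 1975 in WT, with *Mpo* at 2972 in del10, 1581 in ins2 and 1034 in WT and *Elane* at 129 in del10, 104 in ins2 and 418 in WT. The T and NK list summed to 4457 in del10, 12282 in ins2 and 3668 in WT. Of its 7 genes in the set, 6 were more than 2-fold lower in del10 than in ins2, against 4.03% of the 7073 genes. *Cd8a* had 236 in del10, 854 in ins2 and 70.4 in WT and *Cd247* 266 in del10, 727 in ins2 and 49.5 in WT. The set's filter uses a mean that includes ins2, where both were highest, so the count is a description and not a test. The erythroid and megakaryocyte list summed to 7853 in del10, 5033 in ins2 and 5874 in WT. Of its 6 genes in the set, 1 was more than 2-fold lower and 3 higher than in WT in del10. In ins2, 2 were lower and 2 higher. Among the higher genes in both were *Itga2b*, at 4286 in del10, 2775 in ins2 and 987 in WT, and *Gata1*, at 434 in del10, 336 in ins2 and 106 in WT. What part these makeups have in the members' ratios was not tested.

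**Figure D3:**
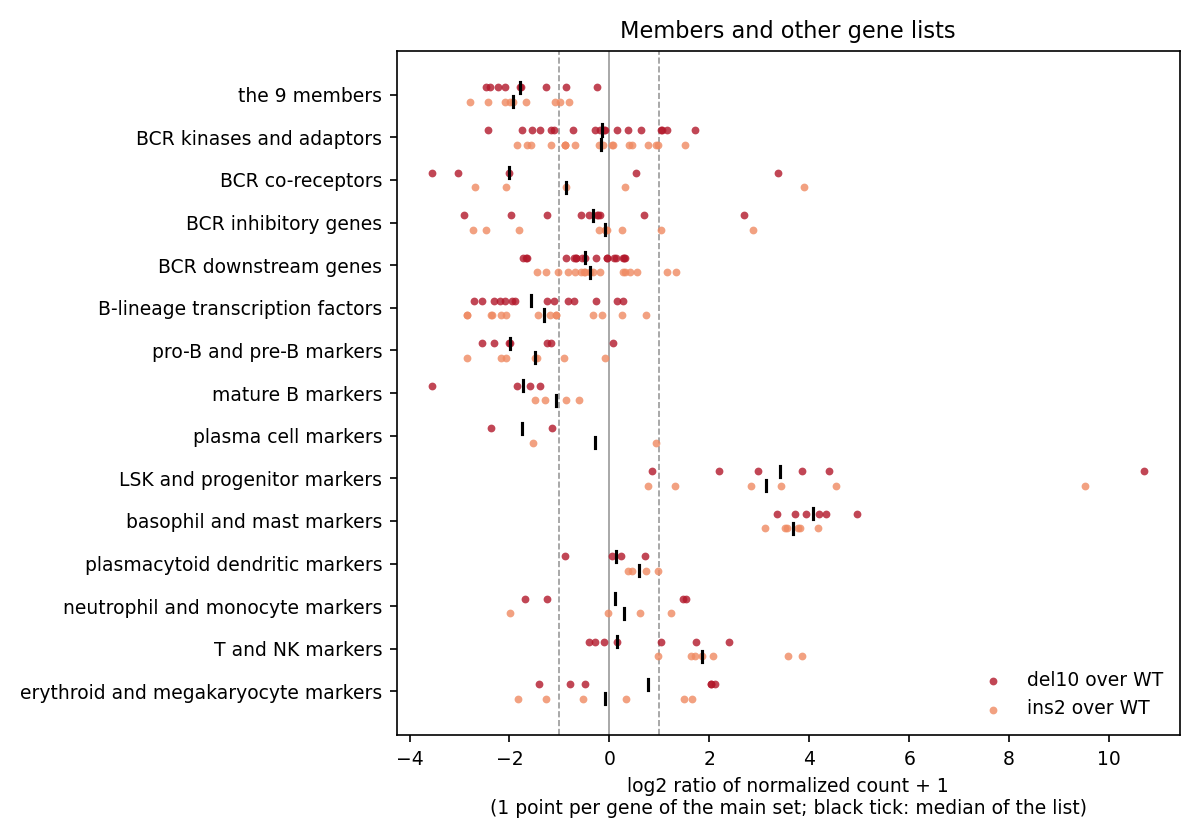
Log2 ratio to WT (x axis, normalized count plus 1) of each gene of the 9 members and of the 14 other lists that is in the set of 7073 genes, for del10 and ins2; black ticks are list medians and dashed lines mark 2-fold. The members, the B-lineage transcription factors and the pro-B and pre-B markers lie mostly left of 0 and the progenitor and basophil markers right of 0; the rightmost progenitor point is Cd34, which was listed at 0 in WT, so its ratio depends on the added 1.

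The genes nearest to the members' mean profile over the 3 libraries, by Euclidean distance of centred log2 values, were *Bcl7a*, *Tmcc2*, *Akap12*, *Stk3* and *Dnajc18*, at distances of 0.03 to 0.04. *Bcl7a* had 1339 in del10, 1241 in ins2 and 4276 in WT, *Akap12* 1652 in del10, 1516 in ins2 and 5258 in WT, and *Tmcc2* 496 in del10, 465 in ins2 and 1622 in WT. *Stk3* had 220.3 in del10, 211 in ins2 and 687 in WT, and *Dnajc18* 155 in del10, 154 in ins2 and 513 in WT. With 3 libraries, a profile has only 2 free differences, so many genes lie close to any profile.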

How the data were processed

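Total RNA (5 ng) of sorted LSK cells was made into rRNA-depleted, strand-keeping libraries and sequenced as 75-bp single-end reads, 1 library per genotype, each from 4 mice. Per the paper's methods and the submitters' processing notes, the authors used bcl2fastq 2.20, Trimmomatic 0.32, TopHat2 2.1.1 with Bowtie2 2.2.3 (mm10) and StrandNGS 3.2 with RefSeq genes. The deposited table holds, for each library, the authors' estimated counts of reads per gene, which include fractions of reads, and the log2 of those counts after the authors scaled them by trimmed mean of M-values (TMM). The factors recovered from the table were 1.02 for del10, 0.984 for ins2 and 1.10 for WT.

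Normalized counts here are read counts times these factors. Ratios are log2(normalized count + 1); a gene was read as different beyond 2-fold, since 1 library per genotype allows no test. Of 14145 genes with any read, the 7073 at or above the median of their mean normalized counts (215) formed the main set. Exact (Clopper-Pearson) 95% intervals were taken on rounded reads and on estimated fragments, that is reads divided by the commonest low read count (searched from 5 to 150 reads, averaged over 5 counts to each side); they cover counting error only, and the fragment size is an estimate. A listed 0 allows up to 3 fragments per library, a normalized count of 48.9 in del10, 62.0 in ins2 and 201 in WT, if the gene was counted. For genes listed at 0 in each library, such as *Ighm*, *Ighd* and *Xbp1*, whether they were counted at all is not known here. The ribosomal precursor *Rn45s* (16.7% of reads in del10, 15.5% in ins2, 15.0% in WT) stayed in the totals.

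The members and the 14 other lists (147 genes; 4 symbols were not matched) were chosen with earlier results of these data known. Genes named in the text are the 9 members; of each other list at most the 2 main-set genes with the largest change in del10 against WT; the 5 genes nearest to the members' mean profile; *Kit* and *Ly6a*; *Calr*, *Rn45s*, *Dntt*, *Syk*, *Plcg2* and the markers listed at 0 were named after their values were seen. Some genes of the lists are counted but not reported by name here. Promoters and motifs came from RefSeq windows, transcripts from GENCODE vM21. Alternatives were 2 pseudocounts, 3 scalings, no filter, 4-fold, and intervals wholly beyond 2-fold; summing *Vpreb1* and *Vpreb2* was added after seeing the data. The ratio step was checked on simulated data. Python 3.11.15 with NumPy, pandas and SciPy was used. No protein sequence was used here.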

Additional observations from a re-analysis of the deposited data

How the results depend on the processing

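The counts of members were recomputed under 9 alternatives, and under 1 more chosen after seeing the data, the sum of *Vpreb1* and *Vpreb2*. For del10 against WT the count of 7 lower members (10.2% of the 7073 genes) became 4 at 4-fold (1.74% of the genes). It was also 4 where the interval on fragments had to lie wholly beyond 2-fold (1.63%). For ins2 against WT the count of 7 (10.7% of the genes) became 3 at 4-fold (1.74%). For del10 against ins2 the single difference (*Vpreb2*) was lost, with 0 members, at 4-fold, with the fragment interval and with *Vpreb1* and *Vpreb2* summed. The shares over all genes were then 0.65%, 0.41% and 7.61%. The other settings kept each count within 1.5 times. Over 135 member ratios under the other pseudocounts and scalings none of those beyond 2-fold changed sign; 5 values near 0 did, of *Cd79a* and *Cd22* in del10 over ins2 under other scalings. The largest move was 0.09 on the log2 scale, and 134 stayed on their side of 2-fold; the exception was *Btk* in ins2 with median-of-ratios size factors, which made the ins2 count 8. No scaling moved the median over all genes by more than 0.1. Leaving out a library was not possible with 1 per genotype, and no paired analysis was possible because each genotype has 1 library. Depth limits *Vpreb2*, *Cd22* and *Vpreb3* most, with at most 20.9 estimated fragments in each library.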
